A study of Mus musculus with 12 samples.

Results

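The thioredoxin, sulfiredoxin and peroxiredoxin genes described here are 10 genes matched by symbol, a rule that holds no measured value: Txn1, Txnrd1, Txnip, Srxn1 and Prdx1 to Prdx6. The set was, however, chosen with earlier results of these data known. All 10 were found among the 24318 genes of the deposited table, and all 10 passed the filter on low counts, as did 12469 genes in all. RNA came from immortalized mouse embryonic fibroblasts (MEFs) labelled MafF-/-::MafG-/-::MafK-/-, a targeting of the 3 small Maf genes that every group shares. Mock cells were compared with cells expressing T-N2G, a tethered Nrf2-MafG heterodimer (spelled T-NG2 in the genotype labels). Both received either vehicle or, for 12 h, the glutathione-depleting electrophile diethyl maleate (DEM) at 100 µM. The 4 groups, each of 3 polyA RNA libraries, are named by cell and treatment, as in mock vehicle or T-N2G DEM. The promoter that drives T-N2G, whether the T-N2G cells are 1 clone or a pool, and whether replicates were separate cultures are not given in the sources used here. The p-values therefore measure the spread between these libraries, which may be technical.

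Thioredoxin is a small cytosolic disulfide reductase, kept reduced by thioredoxin reductase at the expense of NADPH. Peroxiredoxins reduce peroxides through a reactive cysteine; the typical ones draw their electrons from thioredoxin, and sulfiredoxin rescues them when that cysteine is overoxidized. Nrf2, joined to a small Maf protein, binds antioxidant response elements and is known to induce several of these genes under electrophilic stress. Txnip, by contrast, binds thioredoxin and is known to restrain it, and its transcription is known to follow glucose through MondoA and ChREBP.

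Library totals lay between 18863560 and 23095692 fragments. Levels are CPM (counts of fragments scaled to the effective library size), unless FPKM is named, and errors are SD over n = 3. Nfe2l2, which encodes Nrf2, stood at 53.2 ± 5.56 and 62.4 ± 3.79 CPM in mock vehicle and DEM and at 599 ± 109 and 556 ± 94.5 in T-N2G vehicle and DEM. Mafg stood at 0.514 ± 0.0394 and 0.877 ± 0.0563 CPM without T-N2G (vehicle, then DEM) and at 137 ± 27.9 and 121 ± 22.2 with it. Introduced and endogenous RNA are not separated in these values. Maff had 65 to 123 fragments and Mafk 30 to 58 in every library of all 4 groups, and Mafg 10 to 19 in mock libraries; which part of each gene these came from was not tested. All 8 fibroblast markers checked were expressed in every library (Col1a1 at 525 FPKM or more, Vim at 1356 or more). The sums of 5 epithelial and 4 muscle markers stayed at or below 0.455 and 0.267 FPKM, those of 4 endothelial and 5 leukocyte markers at or below 3.04 and 2.52, and that of 4 adipocyte markers at or below 1.30. Most of these last sums came from Kdr (0.722 to 2.34 FPKM), Cd68 (1.27 to 2.43) and Fabp4 (0.215 to 1.27), with Pecam1 and Ptprc at or below 0.0947 and 0.0196 and Adipoq, Plin1 and Adgre1 at 0. The adipocyte sum was 0.406 to 1.30 in the DEM libraries against 0.215 to 0.355 in vehicle, and the fibroblast sum 3078 to 3519 in T-N2G DEM against 3677 to 4247 in the others. The part of these shifts in the results below was not tested. The Y-linked gene Ddx3y lay between 1.19 and 1.53 FPKM in mock and between 2.09 and 2.57 in T-N2G libraries, without overlap. The part of any difference between the populations besides T-N2G in the differences between T-N2G and mock cells below was not tested.

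Per length, as deposited FPKM, Txn1 was the most abundant of the 10 in each group, with 356 ± 31.1 FPKM in mock vehicle. Prdx2 followed at 214 ± 16.6, Prdx1 at 146 ± 6.32, Prdx4 at 136 ± 1.93, Prdx5 at 128 ± 2.05 and Txnrd1 at 70.5 ± 11.6. Prdx3 (51.2 ± 6.17) and Txnip (49.5 ± 7.40) overlapped between libraries, whereas the other neighbours in this order did not. Prdx6 (30.4 ± 5.60) and Srxn1 (12.0 ± 0.686) stood at the low end. In T-N2G DEM the order was different. Prdx1 (274 ± 31.4 FPKM), Txnrd1 (259 ± 46.5) and Prdx2 (237 ± 19.5) followed Txn1 and overlapped one another in sequence, and Prdx6 (148 ± 32.0) overlapped Prdx4 (137 ± 12.2). Srxn1 (79.4 ± 14.5 FPKM) stood above Prdx3 (45.5 ± 5.18), and Txnip was last at 24.9 ± 3.98.

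**Figure D1:**
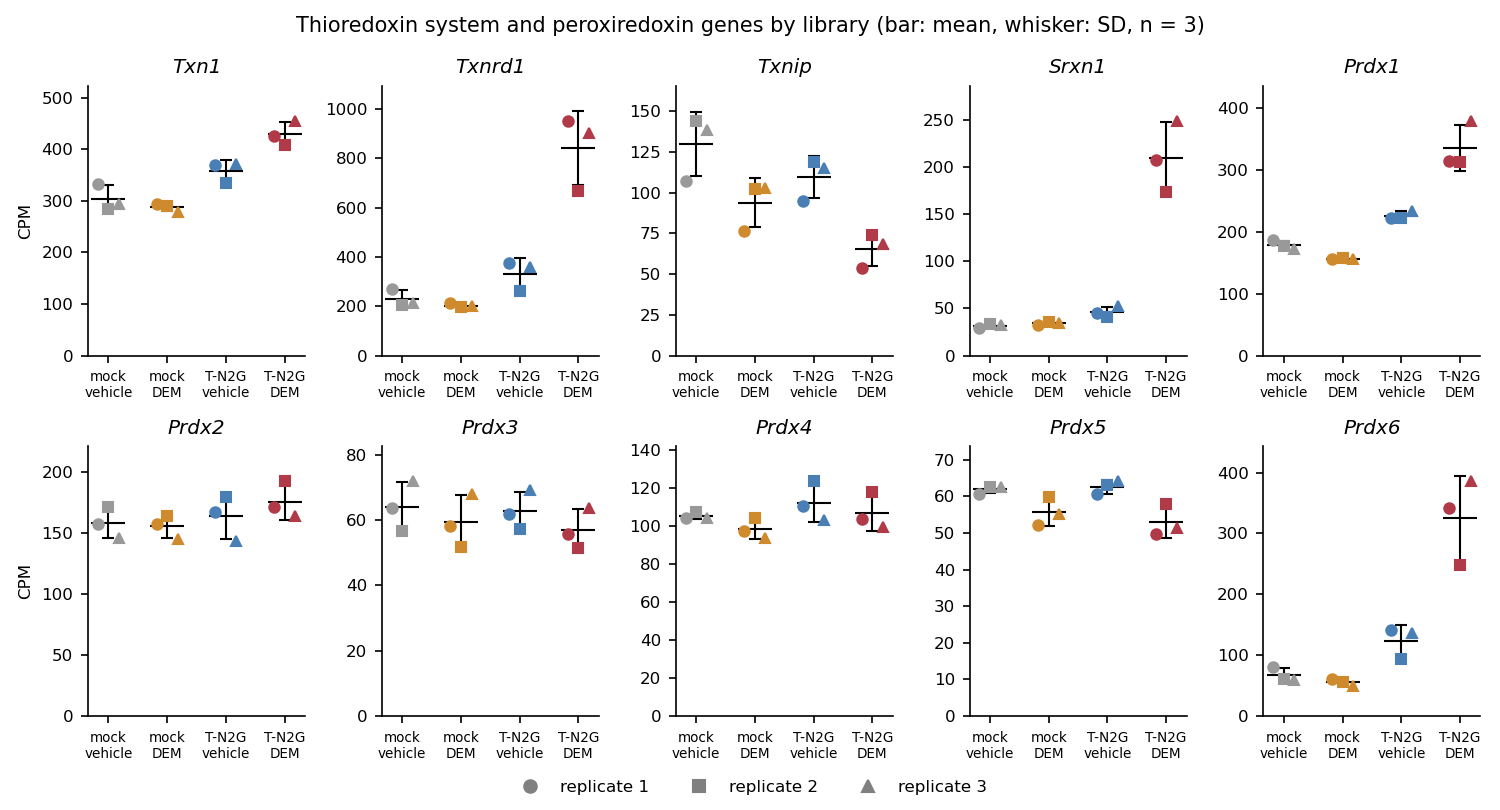
Level of each gene in CPM (linear axis from 0) in every library of the 4 groups, with symbols for the replicate number, a bar for the mean and a whisker for the SD. Srxn1 lies between 29.6 and 52.5 in the first 3 groups and between 173 and 248 in T-N2G DEM, while Prdx4 lies between 93.5 and 123 over all 12 libraries.

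The first question is how these genes responded to DEM in the small Maf-targeted cells without T-N2G. In mock cells edgeR's quasi-likelihood test called 0 of 10 genes higher and 0 lower at an adjusted p under 0.05, where it called 7.76% of all 12469 genes higher and 6.18% lower. At an unadjusted p under 0.05, 0 of the 10 were higher and 2 lower, beside 15.5% and 14.5% of all genes. DESeq2 called 0 higher and 1 lower (9.22% and 7.72% of all genes), and limma on log2(FPKM + 1) 0 and 0 (7.57% and 6.07%). For the 10 genes the median log2 fold change was -0.13, against -0.01 over all genes. The counts above come from fits that ignore the replicate number. Libraries of the same number in different groups deviated alike from their group means (r = 0.361 to 0.631). When the fit also held the replicate number as a factor (the block), 4 were called lower and 0 higher, beside 21.9% and 20.9% of all genes. Those 4 were Txnip, Prdx1, Prdx3 and Prdx5. They are among the results below with their values. In bulk RNA, fewer cells of a type and less RNA per cell cannot be told apart.

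In T-N2G cells DEM raised 5 of the 10 genes and lowered 2, where 10.1% of all genes were called higher and 7.55% lower. The 5 were Srxn1, Prdx6, Txnrd1, Prdx1 and Txn1, and the 2 were Txnip and Prdx5. The median log2 fold change of the 10 was 0.18, against 0.00 over all genes. The block added Prdx2 to the higher and Prdx3 to the lower ones (6 and 3, beside 22.8% and 22.2% of all genes). The DEM effect itself differed between T-N2G and mock cells for 4 genes, all toward higher values, in a test that called 0.417% of all genes higher and 0.016% lower. With the block 5 were called higher (Txn1 added) and 1 lower (Txnip), beside 1.82% and 0.978% of all genes. These 4 were Srxn1, Txnrd1, Prdx6 and Prdx1. The comparisons share groups of libraries and are therefore not independent of one another.

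**Figure D2:**
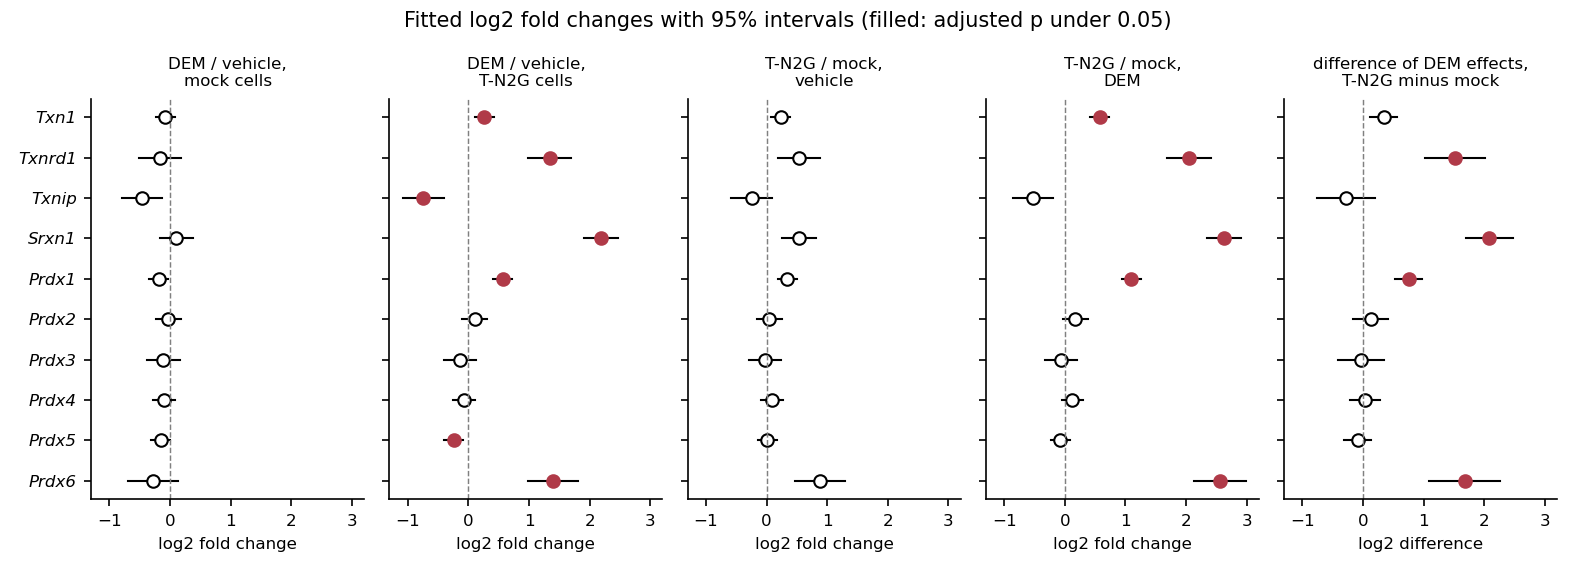
Fitted log2 fold change (circles) with its 95% interval (lines) for each gene in the 4 pairwise comparisons, and the difference of the DEM effects in the last panel. Filled circles mark an adjusted p under 0.05. No circle is filled for DEM in mock cells or for T-N2G in vehicle, 7 are filled for DEM in T-N2G cells and 4 in the last panel. All circles and intervals are from the fit without the block. With the block, 4 genes were called lower for DEM in mock cells, and 5 higher and 1 lower for T-N2G in vehicle.

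Between T-N2G and mock cells in vehicle, edgeR called 0 of 10 genes higher and 0 lower, beside 0.305% and 0.00802% of all genes. At an unadjusted p under 0.05, 5 were higher and 0 lower, beside 3.26% and 3.16% of all genes. DESeq2 called 3 higher and 0 lower (0.658% and 0.209% of all genes), and limma 0 and 0 (0.2% and 0.00802%). The block called 5 higher (Prdx6, Txnrd1, Prdx1, Srxn1 and Txn1) and 1 lower (Txnip), beside 3.06% and 3.24% of all genes. The 3 libraries of each group did not overlap for 4 of these, Prdx6, Prdx1, Srxn1 and Txn1, as for 5.11% of all genes in that direction and 5.09% in the other. Under DEM 5 of the 10 genes were higher in T-N2G cells and 0 lower, where 2.61% of all genes were called higher and 1.11% lower. These were again Srxn1, Prdx6, Txnrd1, Prdx1 and Txn1. With the block 6 were higher (Prdx2 added) and 1 lower (Txnip), beside 10.3% and 9.32% of all genes. At an unadjusted p under 0.05 Txnip was the 1 gene lower (6.82% of all genes), which DESeq2 called too (2.07%) and limma did not (0 lower, 1.04%).

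Among the genes of the thioredoxin cycle, Txnrd1, which encodes the cytosolic thioredoxin reductase, a selenoprotein, had 272, 204 and 212 CPM in replicates 1, 2 and 3 of mock vehicle. Mock DEM had 214, 196 and 200, T-N2G vehicle 376, 262 and 360, and T-N2G DEM 952, 670 and 904. All T-N2G DEM libraries lay above all others, and T-N2G vehicle overlapped mock vehicle by its replicate 2. DEM raised Txnrd1 2.53-fold in T-N2G cells (log2 1.34 ± 0.16 SE, adjusted p = 0.000342 by edgeR). In mock cells the log2 fold change was -0.17 ± 0.16 (adjusted p = 0.504). The difference of these effects was 1.51 ± 0.23 on the log2 scale (95% interval 1.02 to 2.01, adjusted p = 0.0120). That call was lost without mock DEM replicate 3 (1.49, adjusted p = 0.0548), in a fit without the block. With the block on all libraries its adjusted p was 5.86e-08. Under DEM Txnrd1 in T-N2G cells was 4.14-fold that of mock cells (adjusted p = 1.29e-05). In vehicle the ratio was 1.45 (95% interval 1.14 to 1.85, adjusted p = 0.369, or 0.000216 with the block). The RefSeq table places Eid3 within the Txnrd1 locus; it had at most 79 fragments in a library, against 14306 to 19206 for Txnrd1 in T-N2G DEM.

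Txn1, the cytosolic thioredoxin itself, had smaller fold changes than its reductase. It had 333, 284 and 294 CPM in mock vehicle, next to 294, 290 and 279 in mock DEM, 370, 334 and 371 in T-N2G vehicle, then 425, 408 and 454 in T-N2G DEM. The T-N2G vehicle libraries lay just above the highest mock library, and those of T-N2G DEM above all others. Under DEM Txn1 in T-N2G cells was 1.49-fold that of mock cells (log2 0.58 ± 0.07, adjusted p = 0.000496). This was lost in 1 of 16 alternative fits, that of replicates 1 and 2 without the block (log2 0.51, adjusted p = 0.0677). DEM raised Txn1 1.20-fold in T-N2G cells (log2 0.26 ± 0.07, adjusted p = 0.0273). That call was lost without each library of the 2 T-N2G groups in turn except T-N2G DEM replicate 2 (adjusted p up to 0.107). Those fits held no block. With the block on all libraries the adjusted p of this DEM effect was 0.000355. In vehicle the ratio of T-N2G to mock was 1.18 (adjusted p = 0.394, or 0.00630 with the block). The difference of DEM effects was 0.34 ± 0.10 on the log2 scale (adjusted p = 0.533, or 0.00922 with the block). Txnrd1 transcripts came to 19.7 ± 1.47 per 100 Txn1 transcripts by FPKM in mock vehicle, 18.6 ± 0.681 in mock DEM, 24.2 ± 3.21 in T-N2G vehicle, then 51.4 ± 7.86 in T-N2G DEM. The ratio of reductase to thioredoxin RNA thus overlapped between mock vehicle (18.9 to 21.4) and T-N2G vehicle (20.6 to 26.7), and its lowest value in T-N2G DEM was 43.1.

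Txnip, the thioredoxin-binding protein, was lower with DEM. It had 107, 144 and 138 CPM in mock vehicle, next to 76.8, 102 and 103 in mock DEM, 94.7, 119 and 115 in T-N2G vehicle, then 53.7, 73.9 and 68.4 in T-N2G DEM. Replicate 1 was the lowest library in every group. DEM lowered Txnip in T-N2G cells by 40.3% (log2 -0.74 ± 0.15, adjusted p = 0.00745). In mock cells the log2 fold change was -0.47 ± 0.15 (adjusted p = 0.0627, or 3.45e-07 with the block). It lay at -0.48, -0.50 and -0.43 in replicates 1, 2 and 3. The mock call was gained without mock vehicle replicate 1 (-0.59, adjusted p = 0.0375). The DEM effects differed by -0.28 ± 0.22 (95% interval -0.75 to 0.20, adjusted p = 1.00, or 0.0116 with the block). Between T-N2G and mock cells the log2 fold change was -0.52 ± 0.15 under DEM (adjusted p = 0.0994, or 8.09e-08 with the block) and -0.25 ± 0.15 in vehicle (adjusted p = 0.921, or 0.00122 with the block). Txnip transcripts per 100 Txn1 transcripts, by FPKM, were 14.1 ± 3.17 in mock vehicle, 10.6 ± 1.89 in mock DEM, 9.98 ± 1.61 in T-N2G vehicle, then 4.96 ± 0.890 in T-N2G DEM. The last group, at 4.11 to 5.88, lay below the other 9 libraries.

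Sulfiredoxin is encoded by Srxn1, whose promoter is shown because the gene had the largest DEM response of the 10 in T-N2G cells. The 250 bases before its start (RefSeq, GRCm38.p6, chr2:152105274-152105523, plus strand) are printed 5′ to 3′, with matches to the antioxidant response element forms TGACNNNGC and TGAGNNNGC on either strand in capitals.
Srxn1: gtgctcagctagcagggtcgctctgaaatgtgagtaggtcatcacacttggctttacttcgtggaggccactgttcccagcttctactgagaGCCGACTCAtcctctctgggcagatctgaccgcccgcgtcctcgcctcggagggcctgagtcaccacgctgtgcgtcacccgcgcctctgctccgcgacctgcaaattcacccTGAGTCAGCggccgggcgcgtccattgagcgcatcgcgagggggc
Of the matches before the start, the nearest to it, TGAGTCAGC at positions -45 to -37, overlaps the AP-1 form TGANTCA, and a further match lies at -158 to -150 on the minus strand. Another, at 29 to 37 after the start on the minus strand, falls outside the printed part.

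Srxn1 had 29.6, 33.2 and 32.3 CPM in mock vehicle, next to 32.0, 35.5 and 34.7 in mock DEM, 44.7, 40.9 and 52.5 in T-N2G vehicle, then 207, 173 and 248 in T-N2G DEM. Mock libraries with and without DEM overlapped, the T-N2G vehicle libraries lay above all mock libraries, and the T-N2G DEM libraries stood far above the rest. DEM raised Srxn1 4.55-fold in T-N2G cells (log2 2.19 ± 0.13, adjusted p = 5.30e-06). In mock cells the ratio was 1.07 (95% interval 0.887 to 1.30, adjusted p = 0.629). The difference of DEM effects was 2.08 ± 0.18 (adjusted p = 0.000282) and was called in all 21 alternative fits (adjusted p up to 0.0242). T-N2G exceeded mock cells 6.15-fold under DEM (adjusted p = 1.62e-07). In vehicle the ratio was 1.45 (95% interval 1.20 to 1.76, adjusted p = 0.151, or 0.00114 with the block and 0.0145 by DESeq2). Relative to the summed FPKM of its peroxiredoxin substrates and their relatives, Prdx1 to Prdx6, Srxn1 made 1.71 ± 0.116 per 100 in mock vehicle, 1.98 ± 0.10 in mock DEM, 2.23 ± 0.334 in T-N2G vehicle, then 8.33 ± 1.27 in T-N2G DEM.

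Prdx1 and Prdx2 are the cytosolic typical peroxiredoxins. Without the block, Prdx1 was called for DEM in T-N2G cells, T-N2G over mock in DEM and the difference of DEM effects. Prdx2 was called only with the block, as given below. The upstream 250 bases of Prdx1 (RefSeq, GRCm38.p6, chr4:116685349-116685598, plus strand) are shown for comparison with Srxn1, with the same motif forms in capitals.
Prdx1: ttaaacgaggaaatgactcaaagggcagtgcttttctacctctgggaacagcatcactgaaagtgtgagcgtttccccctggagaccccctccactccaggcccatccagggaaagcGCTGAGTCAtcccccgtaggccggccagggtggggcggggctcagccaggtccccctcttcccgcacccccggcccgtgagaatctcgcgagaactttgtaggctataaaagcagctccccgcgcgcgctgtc
The match at -133 to -125 reads TGACTCAGC on the minus strand and overlaps an AP-1 form, as the Srxn1 match at -45 does. A further match lies at 16 to 24 after the start.

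Prdx1 had 187, 177 and 172 CPM in mock vehicle, next to 156, 158 and 157 in mock DEM, 222, 222 and 234 in T-N2G vehicle, then 315, 314 and 379 in T-N2G DEM. No 2 of the 4 groups overlapped. DEM raised Prdx1 1.49-fold in T-N2G cells (log2 0.57 ± 0.07, adjusted p = 0.000431). In mock cells the log2 fold change was -0.19 ± 0.07 (adjusted p = 0.106, or 0.0136 with the block). The difference of DEM effects was 0.76 ± 0.10 (95% interval 0.53 to 0.98, adjusted p = 0.00649). T-N2G exceeded mock cells 2.14-fold under DEM (adjusted p = 2.30e-06), and the ratio in vehicle was 1.27 (adjusted p = 0.0870, or 0.00101 with the block and 0.00508 by DESeq2). The RefSeq table lists pseudogenes of Prdx1, Prdx2 and Prdx6, and how reads shared with such copies were assigned is not given in the sources used here.

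Prdx6, the 1-cysteine peroxiredoxin, which also has phospholipase activity and is reduced by glutathione, had 81.0, 60.5 and 59.2 CPM in mock vehicle. Mock DEM had 60.9, 55.0 and 49.4, T-N2G vehicle 142, 93.3 and 136, and T-N2G DEM 341, 248 and 385. Mock groups overlapped, and each T-N2G group lay above them, T-N2G DEM highest. DEM raised Prdx6 2.63-fold in T-N2G cells (log2 1.40 ± 0.19, adjusted p = 0.000674). In mock cells the log2 fold change was -0.28 ± 0.19 (adjusted p = 0.357). The difference of DEM effects was 1.68 ± 0.27 (95% interval 1.09 to 2.26, adjusted p = 0.0179). That call was lost without each of the 3 mock DEM libraries and without T-N2G DEM replicate 1 or 3 (adjusted p 0.0508 to 0.0823), with differences of 1.53 to 1.75. Those fits held no block. With the block on all libraries the adjusted p of the difference was 2.78e-06. T-N2G exceeded mock cells 5.90-fold under DEM (adjusted p = 8.67e-06). In vehicle the ratio was 1.85 (95% interval 1.39 to 2.46, adjusted p = 0.0913). The vehicle difference was called with the block (7.93e-05), by DESeq2 (0.00129) and without T-N2G vehicle replicate 2 (0.0346). The close relative Prdx6b had 0 fragments in each of the 12 libraries.

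The other peroxiredoxins, Prdx2 of the cytosol, Prdx3 of the mitochondria, Prdx4 of the endoplasmic reticulum and the atypical Prdx5, stayed closer to their mock vehicle levels. Prdx2 ranged from 144 to 193 CPM over the 12 libraries, and its largest log2 fold change was 0.18 ± 0.09, between T-N2G and mock cells with DEM (adjusted p = 0.425, or 0.00440 with the block). For DEM in T-N2G cells it was 0.10 ± 0.09 (adjusted p = 0.487, or 0.0412 with the block). Prdx3 ranged from 51.4 to 71.9 CPM, and replicate 3 was the highest library in every group. Its log2 fold change with DEM was -0.11 ± 0.12 in mock (adjusted p = 0.586, or 0.0466 with the block) and -0.14 ± 0.12 in T-N2G cells (adjusted p = 0.468, or 0.0154 with the block). Prdx4 ranged from 93.5 to 123 CPM and was not called in any comparison with or without the block. The 95% interval of its DEM effect in T-N2G cells was -0.24 to 0.10 on the log2 scale.

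Prdx5 had 60.7, 62.7 and 62.6 CPM in mock vehicle, next to 52.3, 59.8 and 55.1 in mock DEM, 60.6, 63.1 and 64.1 in T-N2G vehicle, then 49.8, 58.0 and 51.3 in T-N2G DEM. Both DEM groups lay below both vehicle groups. DEM lowered it by 15.3% in T-N2G cells (log2 -0.24 ± 0.07, adjusted p = 0.0375), a call lost without each library of the 2 T-N2G groups in turn except T-N2G DEM replicate 2 (adjusted p up to 0.125). Those fits held no block. With the block on all libraries the adjusted p of this DEM effect was 0.000862. In mock cells the log2 fold change was -0.15 ± 0.07 (adjusted p = 0.170, or 0.0176 with the block). The effects differed by -0.09 ± 0.10 (95% interval -0.30 to 0.13, adjusted p = 1.00). Prdx5 overlaps Trmt112 in the RefSeq table. Trmt112 had 979 to 1209 fragments in mock vehicle, 891 to 1113 in mock DEM, 1016 to 1126 in T-N2G vehicle and 881 to 918 in T-N2G DEM. These fragments are not scaled to library size, and the part of Trmt112 in the Prdx5 result was not tested.

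**Figure D3:**
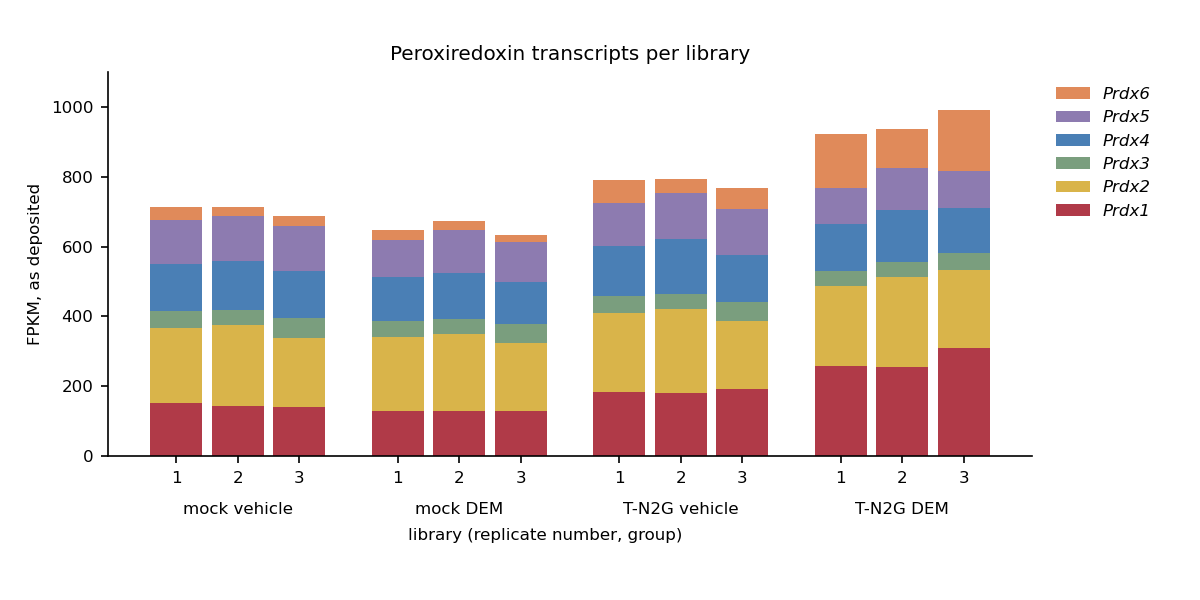
Deposited FPKM of Prdx1 to Prdx6 stacked per library (axis from 0), in 4 groups of 3 libraries. The stacks reach 634 to 674 in mock DEM and 922 to 992 in T-N2G DEM, with wider Prdx1 and Prdx6 bands in the latter.

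By FPKM the 6 peroxiredoxins summed to 704 ± 15.8 in mock vehicle, 652 ± 19.9 in mock DEM, 784 ± 13.4 in T-N2G vehicle, then 950 ± 36.8 in T-N2G DEM, with no overlap between groups. The make-up of this sum moved as well. Prdx2 held 30.3 ± 1.82% of it in mock vehicle, the largest share of that group, against 24.9 ± 2.64% in T-N2G DEM. Prdx1 held 20.7 ± 0.653% and 28.8 ± 2.19%, and Prdx6 4.31 ± 0.743% and 15.5 ± 3.06%. Prdx5 held 18.1 ± 0.630% and 11.5 ± 1.07%. These shares are descriptions and were not tested.

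**Figure D4:**
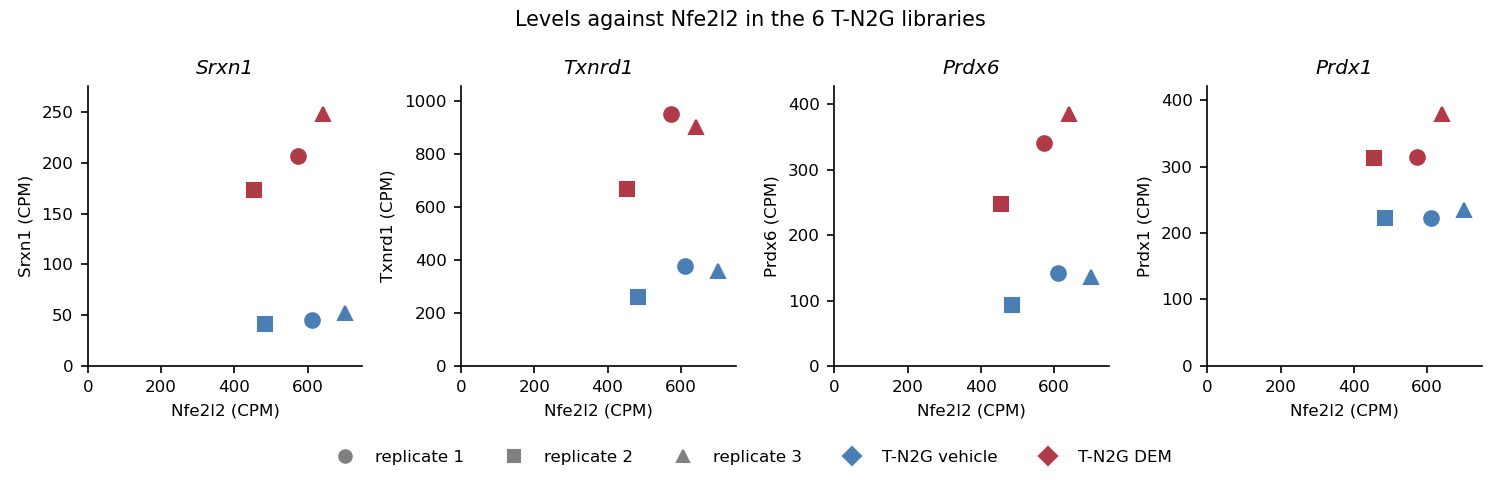
Level of Srxn1, Txnrd1, Prdx6 and Prdx1 (vertical axes, CPM from 0) against Nfe2l2 (horizontal axis, CPM from 0) in the 6 T-N2G libraries. In each colour, replicate 2 (squares, Nfe2l2 at 485 and 454) is the lowest for each gene shown, for Prdx1 by a narrow margin.

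The T-N2G libraries also differed among themselves in the introduced genes. Replicate 2 had the lowest Nfe2l2 in both T-N2G groups, 485 CPM in vehicle and 454 in DEM, against 573 to 701 in the other 4. It had the lowest Mafg too, 106 and 95.7 CPM against 132 to 161. In both groups replicate 2 was also the lowest for Srxn1, Txnrd1, Prdx6 and Txn1. It was the lowest for Prdx1 by a narrow margin (222.0 and 313.5 CPM, against 222.3 and 315.1 in replicate 1). In the mock groups, by contrast, replicate 2 had the highest Nfe2l2 (58.5 and 66.7 CPM) and the highest Srxn1 (33.2 and 35.5). Txnrd1, however, was lowest in replicate 2 of both mock groups too (204 and 196 CPM), as was Txn1 in mock vehicle (284). Replicate 3 was the lowest for Txn1 in mock DEM (279 CPM) and for Prdx6 in both mock groups (59.2 and 49.4). Prdx1 was lowest in replicate 3 of mock vehicle (172 CPM) and replicate 1 of mock DEM (156). Over the 12 libraries, the deviation of each log2 CPM from its group mean correlated with those of Nfe2l2 at r = 0.94 for Srxn1, 0.49 for Txnrd1, 0.56 for Prdx6, 0.48 for Prdx1, 0.32 for Txn1 and 0.38 for Prdx3. It was 0.05 for Txnip, -0.20 for Prdx5, -0.57 for Prdx2 and -0.72 for Prdx4. With those of Mafg, r was 0.69 for Srxn1, 0.88 for Txnrd1, 0.89 for Prdx6, 0.46 for Prdx1, 0.70 for Txn1 and 0.36 for Prdx3. It was -0.52 for Txnip, -0.53 for Prdx5, -0.60 for Prdx2 and -0.82 for Prdx4. These are descriptions over libraries that share replicate numbers, and within the members Txnrd1 and Prdx6 deviated most alike (r = 0.95).

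Replicates 1 and 2 carry library codes of one series in the labels and replicate 3 of another. From replicates 1 and 2 alone, the count of DEM effects that differed between cells was 1 (Srxn1), against 4 from all libraries. Of all 12469 genes, 6 were called higher and 0 lower in that fit. With the block on these replicates the count was 5 (Txn1 added, adjusted p = 0.0390), beside 132 higher and 66 lower of all 12469 genes. The values themselves were close between the series. The differences of DEM effects in replicates 1, 2 and 3 were 1.68, 1.41 and 1.42 for Txnrd1, 1.68, 1.55 and 1.77 for Prdx6 and 0.76, 0.66 and 0.83 for Prdx1. For DEM in T-N2G cells, replicates 1 and 2 alone called 0 genes lower, with -0.75 for Txnip (adjusted p = 0.120) and -0.21 for Prdx5 (adjusted p = 0.292). With the block these replicates called 3 lower, Txnip and Prdx5 among them, beside 2351 of all 12469 genes.

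Promoters were compared over the 9 of the 10 genes with an entry in the RefSeq table, each window running from 250 bases before to 50 after the start. Prdx6 has no entry there, so its promoter was not examined. An antioxidant response element form was found for 3 of the 9, Srxn1, Prdx1 and Txnrd1. That share is near the 30.8% of all 27025 genes with a window that have one. Txnrd1 has 3 listed starts, and the match, TGACAAAGC at -92 to -84 on the minus strand, lies before the second. No match was found in these windows of Txn1, Txnip and Prdx2 to Prdx5. The AP-1 form TGANTCA was found for Srxn1 and Prdx1 and in 8.97% of all genes. The 250 bases before Txnip (RefSeq, GRCm38.p6, chr3:96557707-96557956, plus strand) are shown since DEM lowered this gene, with a match to a form of the carbohydrate response element, to which MondoA and ChREBP bind, in capitals. The form searched, on both strands, is a pair of CACGNG motifs 5 bases apart.
Txnip: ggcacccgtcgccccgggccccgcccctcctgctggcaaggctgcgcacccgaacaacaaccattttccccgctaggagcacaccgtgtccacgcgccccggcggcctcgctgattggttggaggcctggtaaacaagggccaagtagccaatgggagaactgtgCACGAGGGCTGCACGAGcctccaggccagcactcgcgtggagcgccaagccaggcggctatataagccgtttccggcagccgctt
That form, at -85 to -69, was found in windows of 15 of the 27025 genes (0.0555%). It was chosen after the values were seen, so this share is a description only. A match to letters is no measure of binding.

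Beyond the 10 genes, 48 further genes of the pathway were examined in 8 groups, and 47 were tested. Between T-N2G and mock cells, edgeR called 0 of the 47 higher and 0 lower in vehicle, beside 0.305% and 0.00802% of all genes. At an unadjusted p under 0.05 the counts were 0 and 1 (2.13% lower, beside 3.26% and 3.16% of all genes). DESeq2 called 0 and 0 (0.658% and 0.209% of all genes), as did limma (0.2% and 0.00802%). Under DEM edgeR again called 0 and 0, beside 2.61% and 1.11% of all genes. At an unadjusted p under 0.05 the counts were 4 and 4 (8.51% each, beside 8.1% and 6.82%). DESeq2 called 1 and 2 (2.13% and 4.26%, beside 3.56% and 2.07%), and limma 0 and 0 (2.5% and 1.04% of all genes). With the block, 1 was higher and 1 lower in vehicle (2.13% each, beside 3.06% and 3.24% of all genes), and 5 and 6 under DEM (10.6% and 12.8%, beside 10.3% and 9.32%). The difference of DEM effects was called for 0 and 0, beside 0.417% and 0.016% of all genes. Counts at an unadjusted p under 0.05 were 0 and 0 too (2.42% and 1.23% of all genes), as by DESeq2 (0.666% and 0.12%) and limma (0.521% and 0.016%). With the block the counts were 0 and 1 (2.13% lower, beside 1.82% and 0.978% of all genes). DEM itself called 5 higher and 3 lower in mock cells (9 and 10 with the block), and in T-N2G cells 3 higher and 4 lower (7 and 6 with the block). In mock cells these were 10.6% and 6.38% of the 47, near the 7.76% and 6.18% of all genes, and with the block 19.1% and 21.3%, near 20.9% and 21.9%. In T-N2G cells they were 6.38% and 8.51%, beside 10.1% and 7.55% of all genes, and with the block 14.9% and 12.8%, beside 22.8% and 22.2%. The medians of the 47 log2 fold changes were -0.06 and 0.00 for these, against -0.01 and 0.00 over all genes.

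Mitochondrial thioredoxin Txn2 rose with DEM in both cell types, from 96.8 ± 11.0 to 134 ± 9.26 CPM in mock (1.39-fold, adjusted p = 0.0190) and from 100.2 ± 10.4 to 138 ± 17.4 in T-N2G cells (1.38-fold, adjusted p = 0.0159). Without the block it was the 1 called gene among 6 further thioredoxins and reductases. Among 4 methionine sulfoxide reductases, which thioredoxin reduces, Msrb3 rose in mock cells (1.25-fold, adjusted p = 0.0214), with 1.08-fold in T-N2G cells (adjusted p = 0.348, or 0.0340 with the block). Of 12 other proteins with a thioredoxin fold, Txnl4b rose in mock cells (1.27-fold, adjusted p = 0.0429), with 1.07-fold in T-N2G cells (adjusted p = 0.575). Txndc15 fell in T-N2G cells (log2 -0.27 ± 0.06, adjusted p = 0.0139), with -0.18 ± 0.06 in mock cells (adjusted p = 0.0769, or 0.00662 with the block). The 4 glutaredoxins and 3 sestrins had no call without the block. With it, 1 glutaredoxin was higher and 2 sestrins lower in T-N2G than mock cells under DEM, beside 10.3% and 9.32% of all genes. For DEM in T-N2G cells the block called 1 glutaredoxin higher and 1 lower, beside 22.8% and 22.2%. Glrx5 stood at 73.4 ± 10.0 FPKM and Sesn3 at 11.7 ± 3.09 in mock vehicle.

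Of 5 genes for proteins that thioredoxin serves or binds, 2 were called without the block, both subunits of ribonucleotide reductase. Rrm2b, its p53-induced small subunit, rose with DEM 1.62-fold in mock and 1.53-fold in T-N2G cells (adjusted p = 0.00159 in each). Rrm1, the large subunit, fell, with log2 fold changes of -0.41 ± 0.06 in mock (adjusted p = 0.00178) and -0.26 ± 0.06 in T-N2G cells (adjusted p = 0.0118). Of 7 genes for arrestin-domain relatives of Txnip and for the MondoA and ChREBP factors, 6 were tested. The ChREBP gene Mlxipl had 0 fragments in every library and was not tested. Mlxip, which encodes MondoA, averaged 103 to 109 CPM in the 4 groups and had no call without the block. Arrdc4, which like Txnip is a known MondoA target, fell with DEM. On the log2 scale Arrdc4 fell by 0.36 in mock (adjusted p = 0.0257) and by 0.47 in T-N2G cells (adjusted p = 0.00648). Arrdc3 rose 2.00-fold in mock (adjusted p = 0.00622) and by 0.59 on the log2 scale in T-N2G cells (adjusted p = 0.0461). Of 7 genes of the selenocysteine machinery, on which Txnrd1 protein depends, Sepsecs fell by 0.54 in mock (adjusted p = 0.00910) and by 0.58 in T-N2G cells on the log2 scale (adjusted p = 0.00514). None of these DEM effects was called different between the cells without the block. With it, that of Arrdc3 was (log2 -0.41 ± 0.26 without the block, adjusted p = 0.0390 with it).

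The tested genes with the pattern most like that of Srxn1 over the 12 libraries, by Pearson's r of log2 CPM, were Abcc4 (0.997), Gclm (0.996), Tmem55a (0.990), Cat (0.990) and Gclc (0.988). Those most like Txnip were Cd248 (0.981), Plekhg1 (0.976), Nov (0.973), Zhx1 (0.972) and Marcks (0.972). Gclm, a subunit gene of the first enzyme of glutathione synthesis, averaged 49.4 CPM in mock vehicle, 49.5 in mock DEM, 73.8 in T-N2G vehicle, then 273 in T-N2G DEM. Among the 10 genes, Txnrd1 and Prdx6 were the most alike (r = 0.991), followed by Txn1 and Prdx6 (0.987).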

How the data were processed

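PolyA RNA was measured in 12 libraries of 4 groups. Per the labels' protocols, RNA was extracted with RNeasy Mini and libraries were made with the SureSelect strand-specific kit, from cells in 10% serum. Per the submitters' processing notes the build was mm9 and the tools were Cuffdiff 2.1.1, TopHat2 2.0.8b and bcl2fastq 2.16.0.10; strand setting and annotation are not given in the sources used here. The deposited table holds estimated counts of fragments per gene and library, 98.3% of them whole numbers exactly, and FPKM as scaled by the authors, per the file headers. The submitters' key tied each condition and run number to a sample title.

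Rounded counts were tested with edgeR 4.0.16 under R 4.3.3 (filterByExpr, minimum count 10, minimum total 15; TMM; 1 quasi-likelihood fit of all libraries; Benjamini-Hochberg over 12469 genes). Standard errors were derived from F (absolute log2 fold change over root F). Library totals of 18863560 to 23095692 fragments set the counting precision. Alternatives were the replicate block, other normalizations, no filter, DESeq2 1.42.0, limma 3.58.1 on log2(FPKM + 1) and log2(FPKM + 0.1), only the groups compared, replicates 1 and 2 alone, and each library left out. The procedures were tested on simulated data.

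The members and lists were chosen with earlier results of these data known. All members are named in every contrast. Per list, the called genes of smallest adjusted p (3 at most) are named, or the most abundant one by FPKM where none was called; for likeness, the 5 genes of highest r with Srxn1 and Txnip. Ddx3y, Eid3, Trmt112, Prdx6b, Mlxip and Mlxipl were chosen after their values were seen, as were the promoter motifs.

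Replicate numbers are in the titles. Deviations of log2 CPM from group means correlated at r = 0.361 to 0.631 for 18 same-numbered pairs across groups and at -0.422 to -0.00363 for 36 differently numbered ones, so the numbers pair the libraries. Block values stand beside results whose call they change.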

Additional observations from a re-analysis of the deposited data

Results flagged for a closer look

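The DEM effect differed between T-N2G and mock cells for 4 of the 10 genes, by edgeR's test of the difference itself (n = 3 libraries per group, Benjamini-Hochberg over all genes), beside 0.417% of all genes called higher. The count was 2 without mock DEM replicate 3 and 3 without mock DEM replicate 1 or 2 or T-N2G DEM replicate 1 or 3. In those fits 22 to 34 of all 12469 genes were called higher. Prdx6 was lost without each of these 5 libraries, and Txnrd1 without mock DEM replicate 3. These fits held no block. With the block on all libraries the adjusted p was 2.78e-06 for Prdx6 and 5.86e-08 for Txnrd1. On the log2 scale the difference was 2.08 for Srxn1, 1.68 for Prdx6, 1.51 for Txnrd1 and 0.76 for Prdx1, with adjusted p = 0.000282, 0.0179, 0.0120 and 0.00649. Each was positive in replicates 1, 2 and 3 alike. For Nfe2l2 and Mafg the log2 fold change with DEM within T-N2G cells was -0.11 ± 0.14 and -0.18 ± 0.15 (adjusted p = 0.638 and 0.442, or 0.386 and 0.00816 with the block).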

How the results depend on the processing

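Of 850 alternative values for the 50 log2 fold changes of single genes, 769 kept direction and side of the threshold, 36 were gained as calls, 26 were lost and 19 changed sign, all of the last in results without a call. Counts of the 10 genes called moved as follows, with the shares of all genes for the block and DESeq2 given above. With the replicate block, T-N2G over mock in vehicle gave 5 higher and 1 lower in place of 0 and 0, T-N2G over mock in DEM 1 lower in place of 0, DEM in mock cells 4 lower in place of 0, and the difference of DEM effects 1 lower in place of 0. The pairing changed no other count by over 1.5 times. DESeq2 gave 3 higher in vehicle, 1 lower for T-N2G over mock in DEM and 1 lower for DEM in mock cells. Replicates 1 and 2 alone with the block gave 4 higher and 1 lower in vehicle, beside 190 and 120 of all 12469 genes. They gave 1 lower for T-N2G over mock in DEM (741 of all genes) and 4 lower for DEM in mock cells (2295). Without the block they gave 0 lower for DEM in T-N2G cells (177 of all genes) and 1 higher for the difference of DEM effects (6). For DEM in T-N2G cells no filter and only the groups compared each gave 1 lower in place of 2, beside 826 of 17650 and 581 of 12469 genes. The cause of these moves was not tested, beyond the smaller number of libraries in the last fits. Without 1 library, counts for T-N2G over mock ranged from 0 to 1 higher and 0 to 0 lower in vehicle and from 5 to 5 and 0 to 0 in DEM. Those for DEM ranged from 0 to 0 higher and 0 to 1 lower in mock and from 4 to 5 and 1 to 2 in T-N2G cells, and those for the difference of DEM effects from 2 to 4 higher and 0 to 0 lower. A lone pair of libraries is then assumed to vary like the other groups.

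Some values near 0, none of them called, changed sign when 1 library was left out. On the log2 scale they then ranged from -0.0198 to 0.133 for Prdx2, from -0.114 to 0.0598 for Prdx3 and from -0.00276 to 0.0355 for Prdx5 in T-N2G over mock in vehicle. They ranged from -0.158 to 0.0451 for Prdx3 in T-N2G over mock in DEM, from -0.0815 to 0.0357 for Prdx2 with DEM in mock cells, and from -0.129 to 0.0743 for Prdx3 and -0.0538 to 0.0909 for Prdx4 in the difference of DEM effects. For Prdx4 that difference was -0.00659 from replicates 1 and 2 alone and -0.00614 from these with the block. Each of the 10 genes had at least 592 fragments in every library.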
